A study of Homo sapiens with 3 samples.

Results

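The genes followed here are TXNIP, its relatives ARRDC4 and ARRDC3, the glucose-sensing transcription factors MLXIP (MondoA) and MLXIPL (ChREBP), their partner MLX, and TXN, which encodes thioredoxin. Their rows were taken by gene symbol, and all 7 were found among the 25270 symbols of the series. The set itself was chosen with earlier results of these data known. The series compared 3 cultures, each sequenced as 1 library (n = 1). Parental HepG2 cells, a human hepatocellular carcinoma line of liver origin, were left untreated. HepG2/metR cells are described as survivors of HepG2 kept for more than 5 months under metformin, an inhibitor of respiratory complex I, and serve as a hyper-glycolytic model rich in lactate. For the last culture, HepG2/metR cells received oxamate, which blocks lactate dehydrogenase, at 40 mM over 24 h. Both HepG2/metR cultures therefore carry the selection history, and whether metformin was present at harvest is not given in the sources used here. Without replicates no p-value is given, and a difference between conditions cannot be told apart from one between cultures or library preparations.

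TXNIP and its relatives belong to the alpha-arrestins, adaptor proteins that carry membrane proteins to ubiquitin ligases and into endosomes. TXNIP binds reduced thioredoxin and restrains glucose uptake by promoting the removal of glucose transporters from the cell surface. Its transcription, and that of ARRDC4, rises when glucose 6-phosphate builds up, because MondoA or ChREBP then enters the nucleus with MLX and binds carbohydrate response elements. MondoA is broadly expressed, whereas ChREBP is best known from liver and fat, where it drives genes of glycolysis and fat synthesis.

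Levels are given in FPKM, a count of fragments corrected for transcript length and for the size of the library, and were read back from deposited values that take the form log2(FPKM + 1). A level below is in FPKM, and a log2 change is a difference of deposited values, which understates the change of low genes. The number of reads is unknown. From the smallest values the HepG2/metR library was about 1.21 times and the oxamate library about 1.24 times as deep as the parental library. Of 14 hepatocyte markers, all were between 13.4 and 11976 FPKM in parental cells, but 12 were below 1 FPKM in each of the HepG2/metR libraries, where 5 without and 2 with oxamate were listed at 0. The summed level of these markers was 33410 FPKM in HepG2, 14.7 in HepG2/metR and 12.1 with oxamate, so the label of a liver cell was not matched by liver markers in HepG2/metR. That the HepG2/metR libraries descend from the parental culture was not tested and cannot be settled from these values, which bears on every comparison of HepG2/metR with HepG2 below. In bulk RNA, fewer cells of a type and less RNA per cell cannot be told apart.

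In HepG2/metR against HepG2, 1 of the 7 genes, ARRDC4, was at least 2-fold higher and 2, MLXIPL and ARRDC3, were at least 2-fold lower. Over all 12210 genes with a mean of at least 1 FPKM, among which all 7 were kept, 16.6% were at least 2-fold higher and 17.6% at least 2-fold lower. MLXIPL was above 1 FPKM in HepG2 only and passed the filter through that library, so its count as lower was fixed in advance. With oxamate, TXNIP and ARRDC4 rose past 1.5-fold and 0 of the 7 fell past it, beside 4.3% of all genes higher and 3.82% lower. This background of 525 genes higher and 466 lower became 1184 and 192 when every library was given an equal FPKM total, and 661 and 374 under upper-quartile scaling, while TXNIP and ARRDC4 remained the members past the fold under both. The shares as deposited are also the background for the counts in every gene list below. Past 1.5-fold, a count of 0 in a short list lies near these shares. Of the genes kept, 627 were listed at 0 in at least 1 library, and whether such a 0 is absence or a failed estimate was not tested. Over the 7 genes the median was 0.28 on the log2 scale in HepG2/metR and 0.01 with oxamate, against 0.02 in both comparisons over all genes kept. The members thus moved in different directions, and the counts say little about the group as a whole. Both comparisons use the HepG2/metR library.

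**Figure D1:**
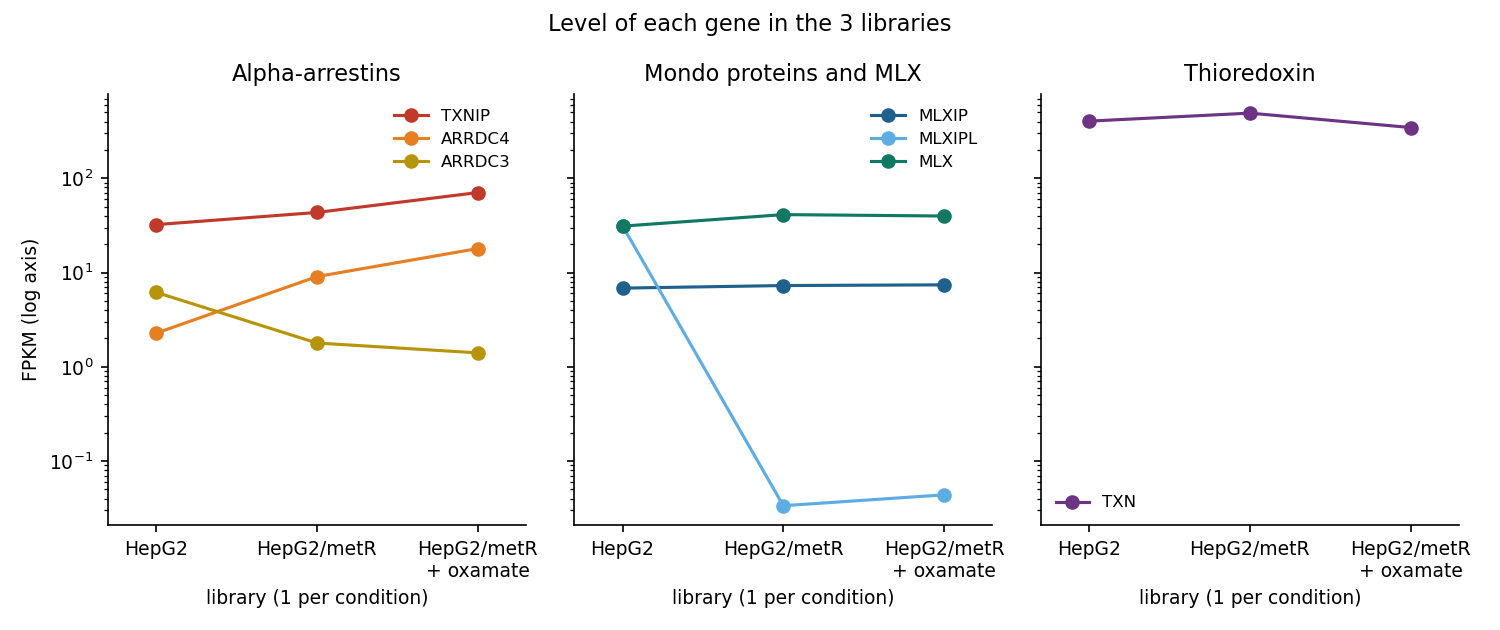
Level of each of the 7 genes in FPKM, on a log axis, in the 3 libraries, 1 point per library with lines joining the same gene. TXNIP went from 32.2 to 43.4 to 70.5 FPKM and ARRDC4 from 2.27 to 9.06 to 18.0, ARRDC3 fell below ARRDC4, MLXIPL dropped from 31.4 to 0.0336 FPKM, and MLXIP stayed between 6.84 and 7.41 FPKM.

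TXNIP, the thioredoxin-interacting protein, was listed at 32.2 FPKM in HepG2, 43.4 in HepG2/metR and 70.5 with oxamate. The oxamate-treated library was the highest of the 3 and the parental library the lowest. The FPKM ratio was 1.35 for HepG2/metR over HepG2 and 1.63 for oxamate over HepG2/metR, or 2.19 from the parental to the oxamate-treated library. On the log2(FPKM + 1) scale the changes were 0.42, short of 2-fold, and 0.69, past 1.5-fold. The rise with oxamate was at rank 310 from the highest among the 12210 genes, so 97.5% of them changed less or in the other direction, whereas 67.0% lay below TXNIP in the first comparison. In level, TXNIP stood above 77.9% of the genes kept in HepG2, above 84.8% in HepG2/metR and above 92.0% with oxamate. It thus became one of the more abundant transcripts of the treated culture, without having been rare in any.

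ARRDC4, a close relative of TXNIP that likewise lowers glucose uptake, was listed at 2.27 FPKM in HepG2, 9.06 in HepG2/metR and 18.0 with oxamate. The 3 libraries had the same order as for TXNIP. The FPKM ratio was 3.99 in HepG2/metR and 1.98 with oxamate, and 7.91 over both steps. The log2 changes were 1.62 and 0.91, the latter at rank 104 from the highest, and both passed the folds. ARRDC4 stood above 16.7% of genes in level in HepG2 and above 66.8% with oxamate. TXNIP remained the more abundant of the pair, at 14.2 times the FPKM of ARRDC4 in HepG2, 4.79 times in HepG2/metR and 3.93 times with oxamate. The gap between them was therefore smaller in both HepG2/metR libraries.

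The promoter sequences of TXNIP and ARRDC4 are shown because these were the genes that rose with oxamate and both are known targets of MondoA and ChREBP. They cover the 250 bases before a RefSeq start of each gene, 5′ to 3′ on the gene's strand, from RefSeq on GRCh38.p14. TXNIP lies at chr1:145996580-145996829 on the minus strand and ARRDC4 at chr15:97960453-97960702 on the plus strand. Capitals mark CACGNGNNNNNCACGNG, which is a spaced pair of carbohydrate response element cores, the E-box CACGTG, the CCAAT box and the forkhead core GTAAACA, each searched on both strands.
TXNIP: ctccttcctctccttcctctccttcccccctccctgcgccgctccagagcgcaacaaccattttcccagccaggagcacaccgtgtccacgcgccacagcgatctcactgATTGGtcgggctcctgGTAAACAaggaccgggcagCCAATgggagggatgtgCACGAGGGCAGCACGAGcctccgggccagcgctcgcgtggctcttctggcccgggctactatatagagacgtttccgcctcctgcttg
ARRDC4: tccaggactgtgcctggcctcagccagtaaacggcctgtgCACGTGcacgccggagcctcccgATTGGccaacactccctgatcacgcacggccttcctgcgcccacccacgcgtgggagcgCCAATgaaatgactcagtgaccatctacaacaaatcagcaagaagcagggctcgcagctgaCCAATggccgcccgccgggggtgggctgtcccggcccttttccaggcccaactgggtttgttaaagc

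In the TXNIP promoter shown, the spaced pair lies from 88 to 72 bases before the start and reads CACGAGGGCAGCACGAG. A CCAAT box ends 101 bases before the start, another on the opposite strand ends at 136, and the forkhead core lies between them. The ARRDC4 promoter holds no match to the spaced pair in these 250 bases, but it has an E-box from 210 to 205 bases before the start and 3 CCAAT boxes. Of 35116 promoter windows in the RefSeq table, 0.0456% hold the spaced pair in the same 250 bases, 6.34% the E-box, 32.0% a CCAAT box and 2.98% the forkhead core. An E-box overlaps the spaced pair when 1 of its cores reads CACGTG. Among the 9 windows of the 7 genes, the spaced pair was found in 1 of the TXNIP windows only, and the E-box in those of ARRDC4 and MLX. The other TXNIP window, at chr1:145995745-145995994, held none of the motifs searched and is not printed. These are matches of letters and not measured sites.

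The spaced pair was found upstream of 16 gene symbols, of which 14 are in the files and 11 were kept. With oxamate, TXNIP was the 1 gene of these 11 that rose past 1.5-fold, and RAN, a small GTPase of nuclear transport, was the 1 that fell past it, from 808 to 519 FPKM. The other genes had log2 changes between -0.18 for P4HA1 and 0.28 for AKAP10. GFPT1, which opens the hexosamine pathway from fructose 6-phosphate, was listed at 25.2 FPKM in HepG2, 14.9 in HepG2/metR and 17.2 with oxamate. Of the 11, 0 passed 2-fold upward in HepG2/metR against HepG2, and 2, KCTD5 and MTHFS, passed it downward. The share past 1.5-fold was 9.09% in each direction, from 1 gene each, beside 3.92% higher and 3.61% lower among all 9101 genes kept that have a promoter window. The 1 higher gene was TXNIP, whose rise was a reason to show its promoter, so the higher share carries no weight. The genes of this paragraph were named after their values were seen.

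ARRDC3, an alpha-arrestin known for sending adrenergic receptors and integrin beta 4 to degradation, went the other way. It was listed at 6.18 FPKM in HepG2, 1.79 in HepG2/metR and 1.41 with oxamate, so the parental library was the highest. Its level in HepG2 was 3.45 times that in HepG2/metR, a log2 change of -1.36. With oxamate the log2 change was -0.21, which did not reach 1.5-fold, and 21.8% of genes changed further in that direction. ARRDC3 was 2.72 times as abundant as ARRDC4 in HepG2, while in HepG2/metR ARRDC4 was 5.06 times and with oxamate 12.8 times as abundant as ARRDC3. The order of these relatives was therefore turned around between the parental and the HepG2/metR libraries. Summed over TXNIP, ARRDC4 and ARRDC3, the level was 40.7 FPKM in HepG2, 54.2 in HepG2/metR and 89.9 with oxamate, and TXNIP supplied 79.2%, 80.0% and 78.5% of it.

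Of the other alpha-arrestins, ARRDC1 and ARRDC2 were kept and ARRDC5 was listed at 0 in all 3 libraries. ARRDC1, which helps to bud vesicles from the plasma membrane, was listed at 11.8 FPKM in HepG2, 5.92 in HepG2/metR and 6.48 with oxamate. ARRDC2 was listed at 2.45, 5.59 and 5.28 FPKM in the same order. Neither passed 2-fold in HepG2/metR on the log2(FPKM + 1) scale, with changes of -0.88 and 0.93, although ARRDC2 did so with a pseudocount of 0.1 or none and under upper-quartile scaling. With oxamate their changes were 0.11 and -0.07. ARRDC4 and TXNIP were thus the alpha-arrestins past 1.5-fold with oxamate among the 5 that were kept.

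MLXIPL encodes ChREBP, the Mondo protein of liver. It was listed at 31.4 FPKM in HepG2, 0.0336 in HepG2/metR and 0.0438 with oxamate. The parental library stood far above both HepG2/metR libraries, which were near 0. The log2 change was -4.97, at rank 186 from the lowest of the 12210 genes, and it depends on the pseudocount, with -7.88 for a pseudocount of 0.1 and -9.87 for none. Since MLXIPL was kept through HepG2 alone, it could only count as lower, and its rank follows from its HepG2 level. MLXIPL was above 77.4% of genes in HepG2 and above 2.88% in HepG2/metR. With oxamate the log2 change was 0.01, at a level too low for a ratio to be read. All 14 hepatocyte markers fell at least 2-fold in the same comparison, among them HNF4A, a master regulator of hepatocyte genes, which went from 68.7 to 0.0156 FPKM. Their part in the fall of MLXIPL was not tested.

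MLXIP encodes MondoA, the Mondo protein of most tissues, and its levels were nearly level across the series. It was listed at 6.84 FPKM in HepG2, 7.28 in HepG2/metR and 7.41 with oxamate, and the log2 changes were 0.08 and 0.02. Both lay close to the median of all genes. MLXIPL made up 82.1% of the summed FPKM of the Mondo genes in HepG2, 0.460% in HepG2/metR and 0.588% with oxamate. Their sum went from 38.2 FPKM in HepG2 to 7.32 in HepG2/metR and 7.45 with oxamate. The Mondo transcript present in the HepG2/metR libraries was therefore almost wholly MLXIP.

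MLX, the partner that both Mondo proteins need to bind DNA, was listed at 31.1 FPKM in HepG2, 41.2 in HepG2/metR and 39.8 with oxamate. The log2 changes were 0.40 and -0.05, neither of them past the folds. When every library was given an equal FPKM total the change with oxamate was 0.12, so its direction is not fixed. MLX was at 0.813 times the summed Mondo level in HepG2, and at 5.63 and 5.34 times in HepG2/metR without and with oxamate. In HepG2 the FPKM of MLX and MLXIPL were nearly equal.

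TXN, which encodes the thioredoxin bound by TXNIP, was by far the most abundant of the 7 transcripts. It was listed at 404 FPKM in HepG2, 491 in HepG2/metR and 346 with oxamate, above 98.4% or more of the genes kept in each library. The log2 change was 0.28 in HepG2/metR and -0.51 with oxamate. The latter did not reach 1.5-fold, though 5.54% of genes were changed further in that direction. The ratio of TXNIP to TXN was 0.0798 in HepG2, 0.0883 in HepG2/metR and 0.204 with oxamate. TXN thus exceeded TXNIP 12.5 times in HepG2, 11.3 times in HepG2/metR and 4.90 times with oxamate. The narrower ratio of the treated library came from a higher TXNIP and a lower TXN value together.

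**Figure D2:**
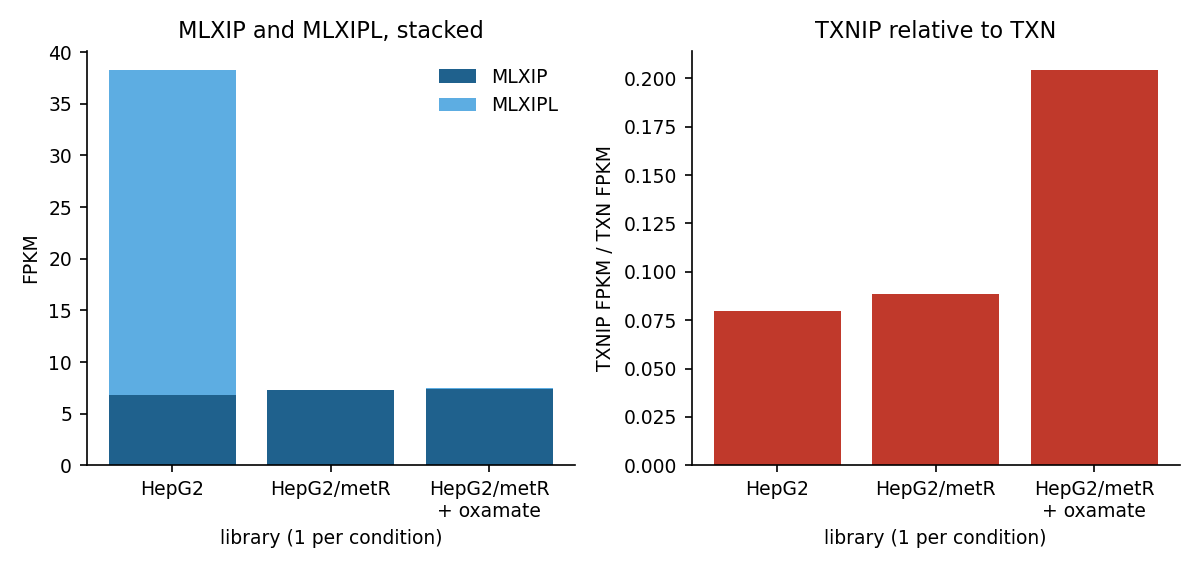
Left, FPKM of MLXIP and MLXIPL stacked for each of the 3 libraries, with a sum of 38.2 FPKM in HepG2 against 7.32 and 7.45 in the HepG2/metR libraries, where MLXIPL is not visible. Right, FPKM of TXNIP divided by FPKM of TXN in each library, which was 0.0798, 0.0883 and 0.204.

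In order of level, the 7 genes ran TXN, TXNIP, MLXIPL, MLX, MLXIP, ARRDC3 and ARRDC4 in HepG2. TXNIP, MLXIPL and MLX lay within 31.1 to 32.2 FPKM there, and with 1 library their order carries no error estimate. In HepG2/metR the order was TXN, TXNIP, MLX, ARRDC4, MLXIP, ARRDC3 and MLXIPL, and TXNIP and MLX were again close at 43.4 and 41.2 FPKM. With oxamate the order was the same, but TXNIP at 70.5 FPKM stood clear of MLX at 39.8.

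The genes whose pair of log2 changes was nearest to that of TXNIP, among 6497 genes with a mean of at least 10 FPKM that do not encode small RNAs, were MAFK, CSGALNACT2, NICN1, ZNF106 and LCOR. Their distance from TXNIP was between 0.05 and 0.15 on the log2 scale, over the 2 comparisons of 3 libraries. MAFK, a small MAF transcription factor, was listed at 11.3 FPKM in HepG2, 16.0 in HepG2/metR and 26.5 with oxamate. The genes nearest to ARRDC4 were ANKRD1, RNF169, SLC26A2, CALCOCO1 and DMPK, at distances of 0.13 to 0.28. ANKRD1, a transcriptional cofactor of muscle and stressed cells, was listed at 62.5, 177 and 337 FPKM in the same order. ARRDC4 itself, with a mean below 10 FPKM, was outside this pool.

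A list of 17 other genes known to respond to ChREBP or MondoA was set beside TXNIP and ARRDC4, and 13 of them were kept. In HepG2/metR, 2 rose at least 2-fold and 4 fell, beside 16.6% and 17.6% of all genes kept, with a median log2 change of -0.47. At a mean of at least 5 FPKM 2 fell, because GPD1 and PKLR are then not counted. The largest falls were in SCD, the stearoyl-CoA desaturase, from 321 to 20.7 FPKM, in GPD1, the glycerol phosphate dehydrogenase of the cytosol, from 13.9 to 0.0601, and in PKLR, the pyruvate kinase of liver, which was listed at 8.06 FPKM in HepG2 and at 0 in HepG2/metR. KLF10, an early growth-factor response gene, rose from 10.4 to 24.7 FPKM, and ME1, the malic enzyme of the cytosol, was listed at 0 in HepG2 and at 7.97 in HepG2/metR, so that KLF10 was the 1 gene higher with no pseudocount. With oxamate 0 of the 13 rose past 1.5-fold and 1 fell, SCD, which reached 7.04 FPKM. The median was then -0.21, and FASN, the fatty acid synthase, went from 61.1 to 44.2 FPKM at a log2 change of -0.46. None of these 13 genes followed TXNIP and ARRDC4 past 1.5-fold under the deposited scaling, beside 4.3% of all genes kept. At that share, 0 of 13 says little about these targets.

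Genes that bring in glucose or set the level of glucose 6-phosphate, the signal of the Mondo proteins, numbered 15, of which 13 were kept. In HepG2/metR, 2 rose at least 2-fold and 6 fell, beside 16.6% and 17.6% of all genes kept, with a median log2 change of -0.71. Under upper-quartile scaling or equal FPKM totals 5 fell, because SLC37A4, at -1.01 as deposited, was then short of 2-fold. At a mean of at least 5 FPKM 4 fell, because SLC2A4 and GCKR, above 1 FPKM in HepG2 only, are then not counted. SLC2A2, likewise above 1 FPKM in HepG2 only, is still among these 4. SLC2A1 (GLUT1), a transporter that TXNIP takes off the membrane, was listed at 261 FPKM in HepG2, 37.9 in HepG2/metR and 28.6 with oxamate. SLC2A3 (GLUT3) went from 92.0 to 4.82 FPKM and SLC2A2 (GLUT2), the transporter of liver, from 23.2 to 0.0227. HK1, a hexokinase of most tissues, rose from 0.950 to 44.1 FPKM, and HKDC1, a hexokinase relative, from 20.1 to 52.1. The libraries thus differed in which transporter and hexokinase transcripts were listed, beside the lower hepatocyte markers described above. With oxamate 0 of the 13 passed 1.5-fold in either direction, and the largest changes were -0.56 for GPI, which interconverts glucose and fructose 6-phosphate, -0.55 for HK2 and 0.53 for SLC2A3. With equal FPKM totals 1 gene of the list, SLC2A3, was higher past 1.5-fold. With a pseudocount of 0.1, SLC2A3 was higher and HK2 lower, and with none GCKR was also higher and SLC2A4 also lower, both of these below 1 FPKM in each HepG2/metR library.

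The thioredoxin and glutaredoxin genes, with the TXNIP partner DDIT4 (REDD1) and the thioredoxin-bound kinase MAP3K5 (ASK1), numbered 18, of which 17 were kept. TXNRD1, the reductase that keeps thioredoxin reduced, was listed at 90.1 FPKM in HepG2, 438 in HepG2/metR and 449 with oxamate. It was the 1 gene among the 17 that rose at least 2-fold in HepG2/metR, against 2 that fell. Over all genes kept these shares were 16.6% and 17.6%. MAP3K5, with a mean below 1 FPKM, was not among the 17, and was listed at 0.0572 FPKM in HepG2, 1.34 in HepG2/metR and 1.10 with oxamate, so that without the filter 2 genes were higher. The genes that fell were GLRX5, a mitochondrial glutaredoxin, from 82.1 to 27.9 FPKM, and PRDX2, a peroxiredoxin, listed at 198 FPKM in HepG2 and at 0 in both HepG2/metR libraries. With no pseudocount, which leaves out a value of 0, GLRX5 was the 1 gene lower. With oxamate DDIT4 was listed at 4.94 FPKM, after 35.8 in HepG2 and 26.5 in HepG2/metR, and its log2 change of -2.21 was the only one of the list past 1.5-fold. DDIT4, an inhibitor of mTORC1 under stress, thus fell in the library in which TXNIP rose. The median of the list was -0.22 in HepG2/metR and -0.11 with oxamate.

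Proteins of the NEDD4 family are the ubiquitin ligases that alpha-arrestins recruit, and ITCH is the ligase known for TXNIP. Of 9 genes 8 were kept, and 3 of them rose at least 2-fold in HepG2/metR and 1 fell, beside 16.6% and 17.6% of all genes kept. Under upper-quartile scaling or equal FPKM totals 4 rose, because NEDD4L, at 0.94 as deposited, then passed 2-fold. WWP1, from 22.4 to 10.8 FPKM at a log2 change of -0.99, also fell past 2-fold with a pseudocount of 0.1 or none. At a mean of at least 5 FPKM 2 rose, because HECW2 is then not counted. NEDD4 rose from 7.40 to 52.5 FPKM, SMURF2 to 106 FPKM at a log2 change of 3.42, and HECW2 from 0.0242 to 2.25, while WWP2 fell from 18.5 to 5.28. ITCH was listed at 29.0 FPKM in HepG2, 16.1 in HepG2/metR and 19.5 with oxamate, and its log2 change of -0.81 did not reach 2-fold. With oxamate 0 of the 8 passed 1.5-fold in either direction, and 1, HECW2, was higher past it with equal FPKM totals and with a pseudocount of 0.1 or none.

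TXNIP is also known to bind NLRP3, the sensor of an inflammasome that matures interleukin 1 beta and interleukin 18. All 7 genes listed for this complex were kept, and in HepG2/metR 4 rose at least 2-fold and 0 fell. Over all genes kept, 16.6% rose and 17.6% fell that far. The median log2 change of the list was 1.74, that of IL1B. At a mean of at least 5 FPKM 2 genes were higher, because NLRP3 and IL1B, at or near 0 in HepG2, are then not counted. NLRP3 was listed at 0 in HepG2, 4.80 FPKM in HepG2/metR and 4.07 with oxamate. IL18 was listed at 5.87, 59.9 and 80.0 FPKM and NEK7, a kinase that NLRP3 requires, at 6.59, 36.5 and 50.6 in the same order. IL1B, interleukin 1 beta, was listed at 0.0638, 2.56 and 1.58 FPKM. With oxamate 0 of the 7 passed 1.5-fold in either direction, and the median was 0.22. NEK7, at 0.46 as deposited, was the 1 gene higher past 1.5-fold with equal FPKM totals, and 2 were higher when small-RNA genes were left out of that total. IL1B, at -0.46, was the 1 gene lower with a pseudocount of 0.1 or none.

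MLX also pairs with the repressors MXD1, MXD4 and MNT, which link it to MAX and MYC. Of 6 genes of this network, 0 rose and 2 fell at least 2-fold in HepG2/metR, beside 16.6% and 17.6% of all genes kept. These were MXD1, listed at 4.74 FPKM in HepG2, by 1.52 on the log2 scale, and MXD4, from 9.46 to 2.81 FPKM. At a mean of at least 5 FPKM 1 fell, because MXD1 is then not counted. With oxamate MXD4 rose to 5.12 FPKM, a log2 change of 0.68 that is close to that of TXNIP, and MYC fell from 74.7 to 46.7 FPKM, a change of -0.67. With equal FPKM totals 0 genes of the network fell past 1.5-fold.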

How the data were processed

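RNA-seq of total RNA was analysed for 3 cultures with 1 library each. The authors deposited 1 value per gene symbol and library on a log2 scale. The form log2(FPKM + 1) is inferred, since back-transformed values above 1 on that scale had at most 6 significant digits in 100% of cases. The submitters' processing notes name STAR 2.5.1b, FastQC 0.11.5, Cufflinks 2.2.1 and hg19, and the annotation is not given in the sources used here.

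Values were used as deposited, with the pseudocount of 1 they include. The genes kept were those whose mean over the 3 libraries reached 1 FPKM, and changes were counted past 2-fold in HepG2/metR and past 1.5-fold with oxamate. Pairs of changes were compared by Euclidean distance. The members, lists, naming rule (all 7 genes, the up to 3 largest rises and falls of each list, the 5 nearest genes) and motifs were chosen with earlier results of these data known. Some genes that the rule selects are counted without being described. HNF4A, MAP3K5, ARRDC5, SLC2A4, SLC37A4, NEDD4L and the genes with the spaced pair lie outside it and were named after their values were seen. Promoters came from the RefSeq table on GRCh38.p14, a build other than hg19, in which all 7 genes matched. The arithmetic was checked on noise-free copies of the HepG2/metR library with known fold changes put in. Such a check does not test the calls between unreplicated libraries. Python 3.11.15, numpy 2.4.6, pandas 2.3.3 and matplotlib 3.10.9 were used.

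Alternatives covered the pseudocount, the filter on low values, the library scaling (median of ratios, upper quartile, equal FPKM total with and without small-RNA genes) and the fold thresholds. The numbers of reads are unknown, so no counting error is given, and with 1 library a group no test between conditions was made.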

Additional observations from a re-analysis of the deposited data

How the results depend on the processing

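Each log2 change of the 7 genes was recomputed under the alternatives, 110 values in all, and 108 kept their direction and their side of the fold. The others were MLX with oxamate at 0.12 and 0.14 with all libraries brought to an equal FPKM total, with and without small-RNA genes. Altering only the filter on low values cannot alter the change of a gene, so those of the 110 values were the same by construction. For TXNIP with oxamate the values ran from 0.69 to 0.88 and for ARRDC4 from 0.91 to 1.10. A 2-fold threshold left 0 of the 7 genes higher with oxamate, and a mean of at least 5 FPKM left 1 gene lower in HepG2/metR, because ARRDC3 is then not tested. Of the 66 list genes kept, 1 was past 1.5-fold higher with oxamate and 3 lower, which became 3 and 5 with a pseudocount of 0.1, and 4 and 6 with none. The number higher was 4 at an equal FPKM total, 5 when small-RNA genes were left out of that total, and 0 at 2-fold. An equal total moved the median of all genes with oxamate to 0.17, where 1184 genes were higher and 192 lower against 525 and 466 as deposited. Without small-RNA genes in the total these were 1289 and 173. With a pseudocount of 0.1, 1018 genes were higher with oxamate and 607 lower, or 8.34% and 4.97%. With none these were 1111 and 622 of 11872 genes, or 9.36% and 5.24%. At a mean of at least 5 FPKM 271 of 8971 genes were higher and 403 lower, or 3.02% and 4.49%, so the lower side was then the larger. A 2-fold threshold gave 66 higher and 64 lower. In HepG2/metR 2021 genes were higher and 2147 lower, against 1249 and 1428 at a mean of at least 5 FPKM and 3262 and 3301 at 1.5-fold. Upper-quartile scaling gave 661 and 374 with oxamate, and moved the median in HepG2/metR to 0.15. Relative to the median of all genes with oxamate in the same setting, TXNIP was at 0.69 under the equal total and 0.67 as deposited. No paired analysis was possible because each group is 1 library, and leaving out a replicate could not be done.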
